A study of Mus musculus with 12 samples.

Results

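The 10 genes described here, Fsd2, Rab3ip, Thnsl2, L1td1, Popdc3, Snx31, Gkap1, Smpd2, Tex19.1 and Zfp618, were chosen because they ranked among the transcripts most consistently higher in mouse thymic lymphomas that resisted p53 restoration. All 10 were found among the 37991 genes of the count table by their Ensembl identifiers, and 9 of them are among the 18612 genes that passed the filter on low counts, while Tex19.1 is not. The study profiled 12 thymic T-cell lymphomas by RNA-seq, 4 of them non-responder and 8 responder, 1 library and 1 mouse tumour each. Every mouse was on a C57BL/6 background with the genotype p53neo/R172H;R26CreER/GNZ, and every one received tamoxifen into the peritoneum each week, so that Cre recombinase restored wild-type p53 from the p53neo allele while the R172H mutant allele remained. Tumours were called responder or non-responder by whether magnetic resonance imaging showed them to shrink or grow, and were taken after the last scan, so no untreated tumour serves as a baseline. The inducible Cre sits at the R26 locus, which is active in most cell types, so host cells in the tumour can also carry the restored allele. Ages, tumour sizes and treatment durations are not in the labels.

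The genes do not form a known pathway. Fsd2, whose product carries fibronectin type III repeats and a SPRY domain, is known from striated muscle, where the protein binds other scaffold proteins. Rab3ip encodes Rabin8, the exchange factor that switches on the small GTPase RAB8 in vesicle transport and cilium formation, and Snx31 encodes a sorting nexin of endosomal recycling. Smpd2 encodes a neutral sphingomyelinase, an enzyme that splits sphingomyelin into ceramide and phosphocholine, and Thnsl2 encodes a relative of threonine synthase that uses pyridoxal phosphate. Gkap1 encodes a Golgi-associated partner of cyclic GMP-dependent protein kinase. Popdc3 encodes a membrane protein with a cyclic AMP-binding Popeye domain, best known from heart and skeletal muscle. Tex19.1 encodes a factor of mouse germ cells and placenta that restrains retrotransposons, and L1td1 encodes an RNA-binding protein derived from a LINE-1 element and known from pluripotent cells. Zfp618 encodes a zinc finger protein reported to partner UHRF2, a reader of 5-hydroxymethylcytosine.

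Promoter sequence differed widely among the genes. RefSeq promoters of GRCm38.p6, each running from 250 bases before to 50 bases after the start, were matched for 7 of the 10 genes. Shown are that of Fsd2, 1 of the 4 genes without overlap between the groups, that of Tex19.1, whose transcript was near 0 in most tumours, and that of Zfp618, the richest in CpG. Each is given 5′ to 3′ on the strand of the gene, with CpG dinucleotides in capitals. They lie at chr7:81566932-81567231 (minus strand), chr11:121145893-121146192 (plus strand) and chr4:62965317-62965616 (plus strand).
Fsd2: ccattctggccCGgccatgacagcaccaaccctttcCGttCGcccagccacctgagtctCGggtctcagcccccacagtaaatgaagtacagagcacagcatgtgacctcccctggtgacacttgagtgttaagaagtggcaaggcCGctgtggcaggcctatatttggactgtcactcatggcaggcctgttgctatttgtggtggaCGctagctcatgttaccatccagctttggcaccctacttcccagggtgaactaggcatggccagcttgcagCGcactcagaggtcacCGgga
Tex19.1: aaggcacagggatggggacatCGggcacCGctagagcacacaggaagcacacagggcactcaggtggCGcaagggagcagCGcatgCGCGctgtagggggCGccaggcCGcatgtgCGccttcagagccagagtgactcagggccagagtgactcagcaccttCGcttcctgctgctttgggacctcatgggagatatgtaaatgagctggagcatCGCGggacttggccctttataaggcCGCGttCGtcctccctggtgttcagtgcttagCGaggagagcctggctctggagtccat
Zfp618: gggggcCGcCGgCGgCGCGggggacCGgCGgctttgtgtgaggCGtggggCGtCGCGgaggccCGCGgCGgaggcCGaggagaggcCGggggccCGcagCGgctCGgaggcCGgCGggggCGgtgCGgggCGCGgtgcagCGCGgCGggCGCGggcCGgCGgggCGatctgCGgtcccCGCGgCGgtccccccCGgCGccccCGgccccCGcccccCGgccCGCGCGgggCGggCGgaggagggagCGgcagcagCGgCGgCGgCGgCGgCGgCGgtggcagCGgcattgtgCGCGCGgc
The Zfp618 promoter held 59 CpG in 300 bases and was 88% G or C, and 99.9% of the 32851 promoters in the table held fewer CpG. That of Fsd2 held 8 CpG and that of Tex19.1 held 16, against a median of 7 over all promoters and a middle range of 3 to 20. Those of L1td1, Thnsl2, Smpd2 and Rab3ip held 14, 11, 25 and 28. The Tex19.1 promoter contained TATAAA on the strand opposite to the one shown, and 13.6% of all promoters held it on either strand. None of the 7 contained a p53 half-site, which 8.36% did. GGGCGG, the core bound by SP1-type factors, was found in 4 of the 7, those of Zfp618, Thnsl2, Smpd2 and Rab3ip, and in 35.7% of all promoters. These matches describe the letters in the window and nothing of factor binding.

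Levels are given below in CPM, which are read counts divided by a library total that TMM (trimmed mean of M values) had adjusted, on the usual CPM scale. Totals lay between 20796860 and 24393524 counts in non-responders and between 23808086 and 30265753 in responders. Because these tumours and this contrast chose the genes, their differences between groups are given as a description without a test. The background for that description is the whole table. In edgeR's quasi-likelihood test, 0 of 18612 genes (0%) passed an adjusted p of 0.05 as higher in non-responders, while 7.73% were higher and 16.1% lower at an unadjusted p under 0.05. DESeq2 called 2.8% of genes as higher and 10.4% as lower, and limma-voom 4.37% and 4.48%. Genes whose 4 non-responders all exceeded all 8 responders made up 0.951% of those tested, and genes with at least 3 of 4 non-responders above every responder 4.43%.

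Only 4 of the 10 genes, Fsd2, Thnsl2, Gkap1 and Smpd2, were free of overlap between the groups, so the description as consistently raised holds for these and less fully for the rest. In each of the other 6, exactly 1 non-responder did not exceed every responder. For Rab3ip, L1td1, Snx31, Tex19.1 and Zfp618 it was non-responder 1, and for Popdc3 it was non-responder 3. Non-responders 2 and 4 exceeded every responder in all 10 genes, non-responder 3 in 9 and non-responder 1 in 5. For Tex19.1, non-responder 4 did so with only 5 counts, against at most 2 in a responder. Of the 10 genes, 7 were lowest among the non-responders in non-responder 1.

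**Figure D1:**
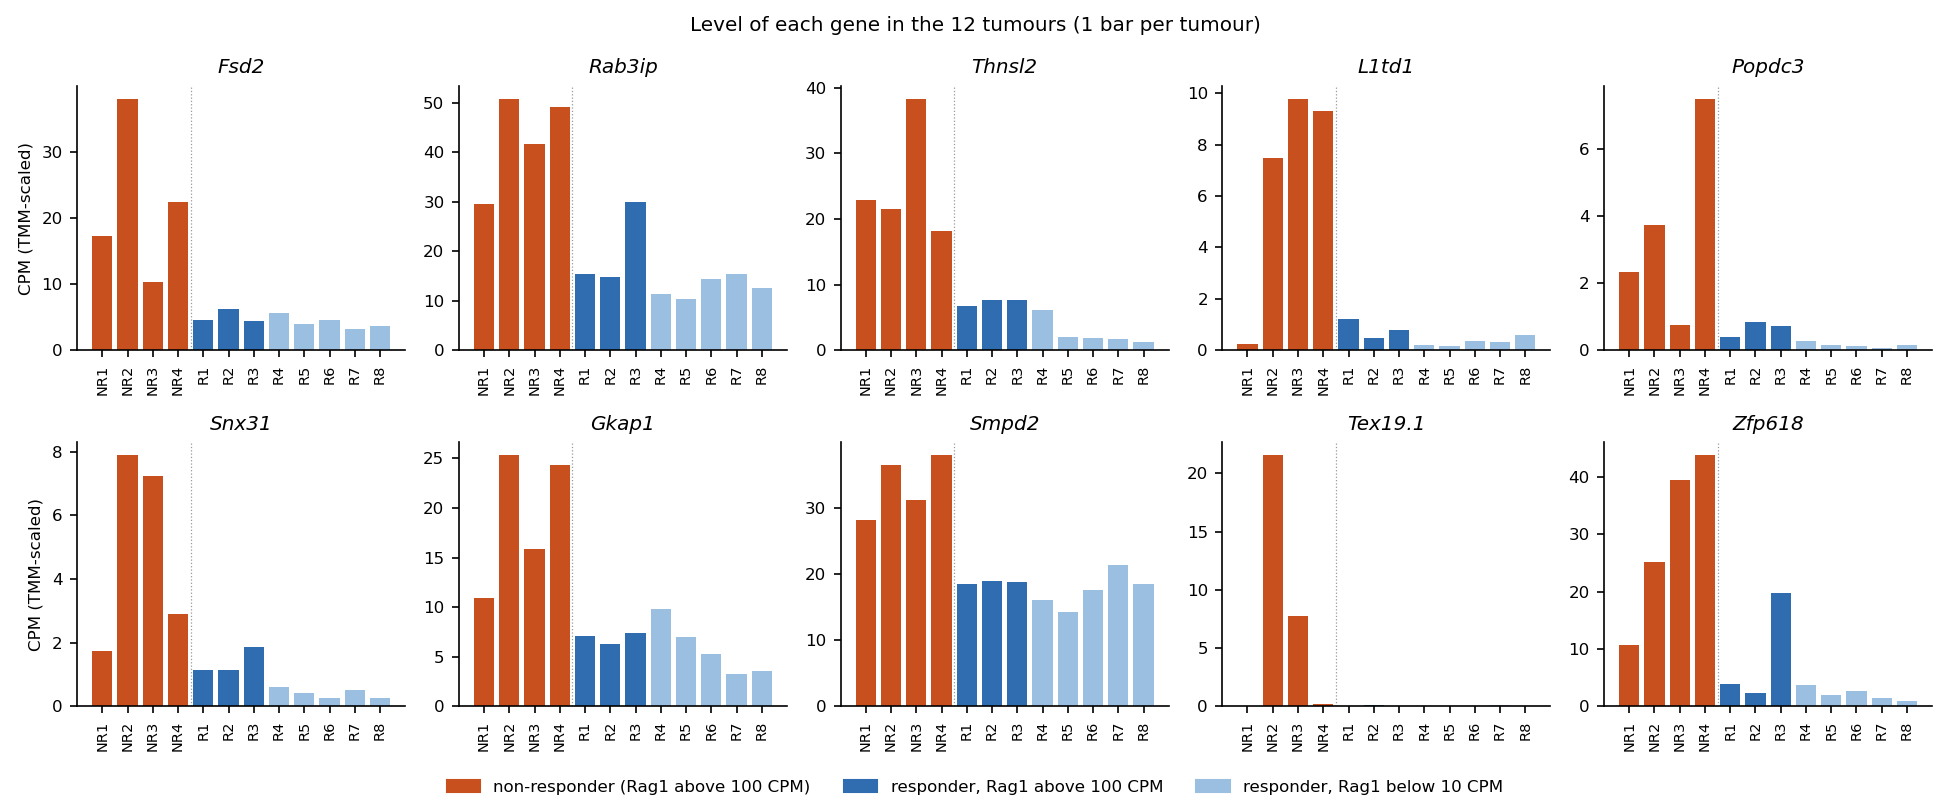
Level of each of the 10 genes in CPM (vertical axes, linear, from 0) in every tumour, with 1 bar per tumour, non-responders on the left of the dotted line and responders on the right. Bars are shaded by group and by the Rag1 level of the tumour; Fsd2, Thnsl2, Gkap1 and Smpd2 show no overlap, and responder 3 stands high for Rab3ip (30.03 CPM) and Zfp618 (19.7 CPM).

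Fsd2 was at 17.3, 38.1, 10.4 and 22.4 CPM in non-responders 1 to 4, and in the 8 responders its lowest, median and highest levels were 3.13, 4.51 and 6.21 CPM. Every non-responder lay above the responders, the lowest of them 1.67 times the highest responder. The log2 fold change was 2.28 (SE 0.30). Thnsl2 was at 22.9, 21.6, 38.4 and 18.2 CPM in non-responders 1 to 4, against 1.19, 4.04 and 7.68 CPM (lowest, median, highest) in responders. Its lowest non-responder was 2.37 times the highest responder, the widest gap of the 10, and the log2 fold change was 2.53 (SE 0.51). Responders themselves spanned a 6.45-fold range for this gene, while Fsd2 varied 1.98-fold among them.

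Smpd2 had the smallest difference and the tightest values. It was at 28.3, 36.5, 31.2 and 38.1 CPM in non-responders, against 14.3, 18.6 and 21.4 CPM (lowest, median, highest) in responders, a log2 fold change of 0.89 (SE 0.15). The highest and lowest tumours differed 1.35-fold within non-responders and 1.5-fold within responders. Smpd2 (chromosome 10, from 41485642 to 41490369, GRCm38) overlaps Mical1, the gene of an actin-oxidising enzyme, on the opposite strand. Whether counting used the strand is not known from the labels, and reads in the overlap therefore cannot be assigned. Mical1 itself was at 105, 146, 44.5 and 81.7 CPM in non-responders and at 44.9 to 103 CPM in responders, and the 2 genes did not share their highest or lowest non-responder. Gkap1 was at 10.9, 25.4, 15.9 and 24.3 CPM in non-responders, against 3.28, 6.60 and 9.86 CPM (lowest, median, highest) in responders. Its groups came close, since the lowest non-responder was 1.11 times the highest responder, and the log2 fold change was 1.62 (SE 0.32).

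Rab3ip and Zfp618 shared an exception, responder 3. Rab3ip was at 29.5, 50.9, 41.6 and 49.1 CPM in non-responders and at 30.03 CPM in responder 3, while the other 7 responders lay between 10.2 and 15.4 CPM. Zfp618 was at 10.7, 25.2, 39.6 and 43.9 CPM in non-responders and at 19.7 CPM in responder 3, and at 0.873 to 3.84 CPM in the other 7 responders. The log2 fold changes over all tumours were 1.46 (SE 0.26) for Rab3ip and 2.71 (SE 0.70) for Zfp618.

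L1td1, Snx31 and Popdc3 were low transcripts, at or under 1.86 CPM in every responder. L1td1 was at 0.229, 7.50, 9.80 and 9.31 CPM in non-responders, against 0.164, 0.396 and 1.21 CPM (lowest, median, highest) in responders. Non-responder 1, with 5 counts, thus lay at the low end of the responders, whose counts ran from 4 to 32, whereas the other 3 non-responders had 153 to 213. Snx31 was at 1.74, 7.90, 7.22 and 2.91 CPM in non-responders and at 0.272 to 1.86 CPM in responders, where responder 3 was highest. Popdc3 was at 2.34, 3.73, 0.736 and 7.49 CPM in non-responders and at 0.0745 to 0.822 CPM in responders, with 16 counts in non-responder 3 and 20 in the highest responder. Their log2 fold changes were 3.72 (SE 0.71), 2.66 (SE 0.56) and 3.39 (SE 0.65) for L1td1, Snx31 and Popdc3.

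Tex19.1 was abundant in only part of the resistant tumours. It had 440 counts (21.6 CPM) in non-responder 2 and 169 counts (7.78 CPM) in non-responder 3, but 1 count in non-responder 1 and 5 in non-responder 4. Responders had between 0 and 2 counts. A transcript was thus present at an appreciable level in 2 of 4 non-responders, and non-responder 1 could not be told from the responders at this depth. Its group mean of 7.41 ± 10.1 CPM (SD, n = 4) in non-responders, against 0.0378 ± 0.0346 CPM (SD, n = 8) in responders, rests on those 2 tumours.

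Per kilobase of annotated exon, the mean level in non-responders was highest for Rab3ip, at 13.5 CPM per kilobase, and Thnsl2, at 11.7. Smpd2 followed at 7.50, Fsd2 at 5.52, Tex19.1 at 3.96, Gkap1 at 3.31 and Zfp618 at 3.19 CPM per kilobase. L1td1, Popdc3 and Snx31 were lowest, at 2.11, 1.72 and 1.68. In responders the order differed at the top, with Rab3ip at 4.88 and Smpd2 at 4.04 ahead of Thnsl2 at 2.01 CPM per kilobase, and the spread between tumours was wide enough that close neighbours in either order are not told apart.

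The level of Rag1, the recombinase gene of immature thymocytes, split the responders and not the non-responders. Rag1 was at 1498, 168, 1756 and 1264 CPM in non-responders 1 to 4, at 895 to 1262 CPM in responders 1 to 3 and at 0.410 to 2.91 CPM in responders 4 to 8. No tumour fell between 10 and 100 CPM: the nearest were responder 5 at 2.91 CPM and non-responder 2 at 168 CPM. All 4 non-responders were therefore Rag1-high, and the 5 Rag1-low tumours were all responders, so a comparison of the groups over all 12 tumours also compares Rag1-high with Rag1-low lymphomas. All 11 tested genes of a cortical thymocyte list that includes Rag1 had a fold change above 0 (median 1.04 on the log2 scale), with 0 past an unadjusted p of 0.05 in edgeR. In limma-voom, which called 4.37% of all genes higher, Rag1, Rag2, Ptcra and Arpp21 passed (adjusted p = 0.0390, 0.0376, 0.0245 and 0.0354). The rest of the list did not pass there, and DESeq2 called 0.

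Fsd2, Thnsl2, Gkap1 and Smpd2 were higher in every non-responder than in any responder, so they could not overlap with the 3 Rag1-high responders alone. For these 4 genes that result was fixed in advance and says nothing about the Rag1 level. None of the other described genes became free of overlap in that comparison, where 3.03% of genes tested were higher without overlap. With only the 7 Rag1-high tumours, the log2 fold change was 2.10 for Fsd2, 1.45 for Gkap1 and 0.82 for Smpd2, close to the values over all 12 tumours. It was smaller for the others, at 1.76 for Thnsl2, 1.08 for Rab3ip, 1.78 for Zfp618, 1.82 for Snx31, 2.47 for Popdc3 and 3.0 for L1td1. With the Rag1 level as a covariate over all 12 tumours the values lay nearby, from 0.87 for Smpd2 to 3.17 for L1td1. In the fit of those 7 tumours the lowest adjusted p over 17470 genes was 0.884 in edgeR.

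Within the responders, Thnsl2, Popdc3 and Snx31 were higher in all 3 Rag1-high tumours than in any Rag1-low one. For Thnsl2 the widest gap did not follow Rag1, since it was at 6.75 to 7.68 CPM in the 3 Rag1-high responders and at 6.15 CPM in Rag1-low responder 4, but at 1.19 to 1.92 CPM in responders 5 to 8. Popdc3 was at 0.377 to 0.822 CPM in Rag1-high and at 0.0745 to 0.260 CPM in Rag1-low responders, and Snx31 at 1.13 to 1.86 and 0.272 to 0.618 CPM. Responders 1 to 3 exceeded all Rag1-low responders for these 3 of the 10 genes and for 9.32% of all genes tested. Fsd2, at 4.43 to 6.21 CPM in Rag1-high and 3.13 to 5.63 CPM in Rag1-low responders, overlapped, as did Smpd2 and Gkap1. These sets of responders were defined from a measured level and are not groups of the study, so no test was made between them.

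**Figure D2:**
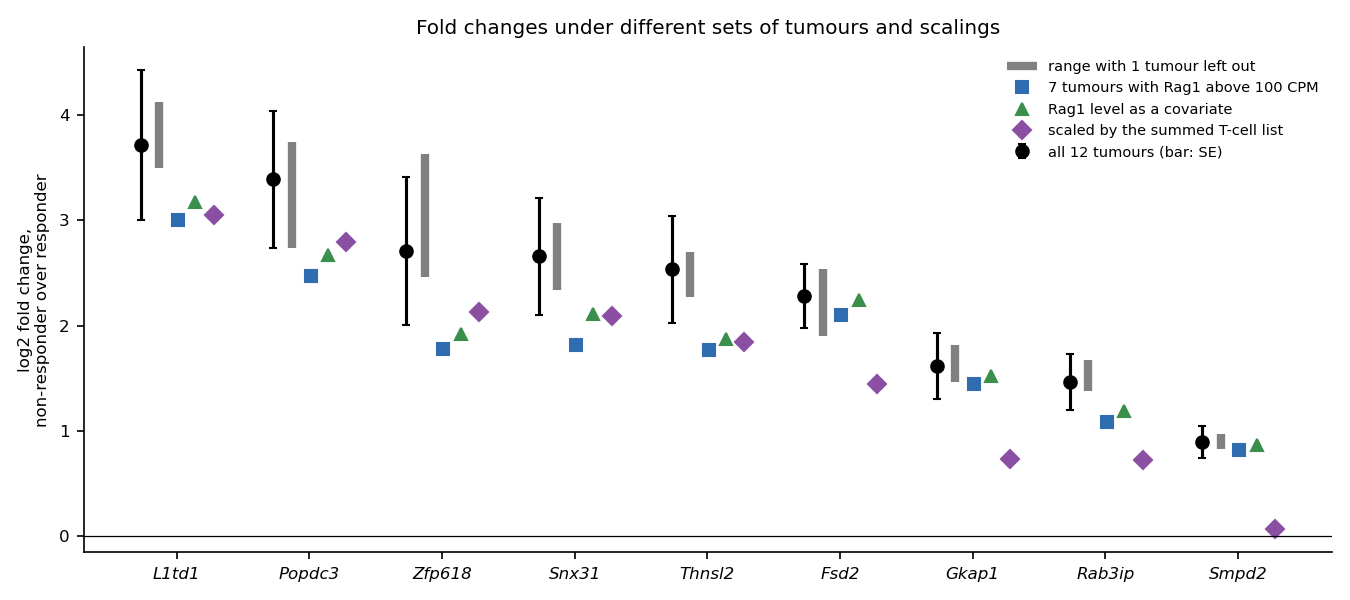
Log2 fold change, non-responder over responder (vertical axis), for the 9 genes that passed the filter, with all 12 tumours (point, bar for SE), the range with 1 tumour left out (grey line), the 7 Rag1-high tumours (square), Rag1 as a covariate (triangle) and scaling by T-cell transcripts (diamond). All values lie above 0, and Smpd2 is at 0.06 under the T-cell scaling.

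The tumours were T-cell lymphomas by their transcripts, but the summed level of T-cell identity genes differed. The summed level of 10 T-cell identity genes (among them Cd3e, Lck and Thy1) was 2343 to 2738 CPM in non-responders, 1679 to 2656 CPM in Rag1-high responders and 832 to 1405 CPM in Rag1-low responders. The sum leans on a few abundant genes. Lck, Thy1 and Lat had log2 fold changes of 0.91, 1.01 and 0.92, against 0.005 for Cd3d, 0.11 for Cd2 and -0.85 for Cd5. Of the T-cell list, 9 genes had a fold change above 0 and 1 below it, with a median of 0.37. Fewer T cells and less of these transcripts per cell cannot be told apart in bulk tumours. Scaling each library by this sum in place of its total moved the median log2 fold change of all genes to -0.86, against -0.02 under TMM. On that scale the 9 genes were at 0.06 (Smpd2), 0.72 (Rab3ip), 0.73 (Gkap1), 1.45 (Fsd2), 1.85 (Thnsl2), 2.09 (Snx31), 2.13 (Zfp618), 2.79 (Popdc3) and 3.05 (L1td1). This scaling shifts all genes by a similar amount. Relative to the median gene, Smpd2 at 0.93 and Fsd2 at 2.31 are therefore near their TMM values largely by construction, which says nothing about T-cell content. The part of T-cell content in the differences was not tested further.

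Fsd2 and Popdc3 are known as striated muscle genes, yet most muscle transcripts had the opposite sign. The summed level of 16 muscle genes was 82.8 to 379 CPM in non-responders, 185 to 397 CPM in Rag1-high responders and 232 to 1490 CPM in Rag1-low responders. Of the 16, all tested, 15 had a fold change below 0 and 1 above it, with a median log2 fold change of -3.33 against -0.02 over all genes. That median was -1.58 within the Rag1-high tumours and -1.98 with Rag1 as a covariate. None of the 16 passed an adjusted p of 0.05 in edgeR, and 13 were lower at an unadjusted p under 0.05, where 16.1% of all genes were. DESeq2 called 11, all lower, where it called 10.4% of all genes lower. Myh7, slow and cardiac myosin heavy chain, was listed at 0 in non-responders 1 and 2 and was at 0.253 to 2.48 CPM in responders. Des, desmin, averaged 5.61 ± 2.35 CPM in non-responders (SD, n = 4) and 21.7 ± 14.1 CPM in responders (SD, n = 8), and Ryr2 and Actn2 had log2 fold changes of -4.45 and -2.32. Transcripts of most other cell types examined had the same sign as muscle. All tested members of the neutrophil (9), erythroid (6), adipocyte (6), B-cell (6), dendritic-cell (6), endothelial (5) and thymic epithelial (7) lists had a log2 fold change below 0. Of 8 macrophage genes 6 and of 6 fibroblast genes 3 did, where 9589 of all 18612 genes were below 0. DESeq2, which called 10.4% of all genes lower, called 6 neutrophil, 5 erythroid, 6 adipocyte, 6 B-cell and 4 dendritic-cell genes lower. It called 3 endothelial, 2 fibroblast, 1 thymic epithelial and 0 macrophage genes lower. The summed levels of these lists overlapped between the groups, for example 13.9 to 31.2 CPM in non-responders and 30.8 to 709 CPM in responders for neutrophils. Within the Rag1-high tumours the median log2 fold change was -2.35 for the neutrophil list and -0.54 for the endothelial list, against -4.47 and -1.61 over all tumours.

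The chromosomal neighbours of the 10 genes were examined as well. They were not chosen by their own values, but a neighbour that shares the pattern of its gene over these tumours also shares the selection for a difference. Their counts are therefore a description and not independent support. For each gene the nearest protein-coding gene on each side and any overlapping gene were taken, which gave 23 genes, 17 of them with enough counts for the test. Of the 17, 13 had a higher and 4 a lower level in non-responders, with a median log2 fold change of 0.44 against -0.02 over all genes. No neighbour passed in edgeR over all genes, and 6 of the 17 (35.3%) were higher at an unadjusted p under 0.05, where 7.73% of all genes were. DESeq2 and limma-voom each called 4 as higher, where they called 2.8% and 4.37% of all genes higher. The 5 neighbours with a log2 fold change over 2 are described next and were singled out after their values were seen.

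Myrfl, which encodes a relative of the myelin regulatory factor, lies 8865 bases from Rab3ip on the same strand of chromosome 10, from 116776535 to 116896919 (GRCm38). It was at 11.1, 12.4, 16.3 and 10.2 CPM in non-responders, against 0.149 to 4.94 CPM in responders, without overlap (log2 fold 3.56, SE 0.83, adjusted p = 0.117 in edgeR and 0.000293 in DESeq2). Its highest responder was responder 3, as for Rab3ip, and without that tumour the value was 4.62. Kank4, which encodes an ankyrin-repeat protein linked to the cytoskeleton, lies 16418 bases from L1td1. It was at 8.81, 47.4, 108 and 44.1 CPM in non-responders, and at 45.7 CPM in responder 3 and 0.278 to 4.11 CPM in the other responders. Its log2 fold change was 2.86 (SE 1.17, adjusted p = 0.167 in edgeR and 0.0662 in DESeq2). Without responder 3 it was 4.95. Non-responder 1 was the lowest non-responder for both Kank4 and L1td1.

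Bves, the founding member of the Popeye family and a paralogue of Popdc3, lies 17320 bases from it on the same strand of chromosome 10. It was at 4.18, 14.9, 0.414 and 8.49 CPM in non-responders, against 0.0397 to 2.07 CPM in responders (log2 fold 2.91, SE 0.90, adjusted p = 0.118 in edgeR and 0.0171 in DESeq2). Non-responder 3 was the lowest non-responder for Bves and for Popdc3. Tex19.2, the paralogue of Tex19.1, lies 27466 bases from it on the opposite strand, and reads could be split between these related copies. Tex19.2 was at 2.20, 16.8, 0.276 and 0.136 CPM in non-responders, against 0.0377 to 3.87 CPM in responders (log2 fold 2.74, SE 1.29, adjusted p = 0.217 in edgeR). Both copies were highest in non-responder 2, without which the value for Tex19.2 was 0.30, but in non-responder 3 only Tex19.1 was high. Ambp, which encodes the precursor of alpha-1-microglobulin and bikunin, lies 3567 bases from Zfp618 and was at 1.10, 0.196, 8.93 and 1.18 CPM in non-responders, against 0 to 0.942 CPM in responders. Its log2 fold change of 3.12 (SE 0.92, adjusted p = 0.117 in edgeR and 0.0146 in DESeq2) was 1.36 without non-responder 3.

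**Figure D3:**
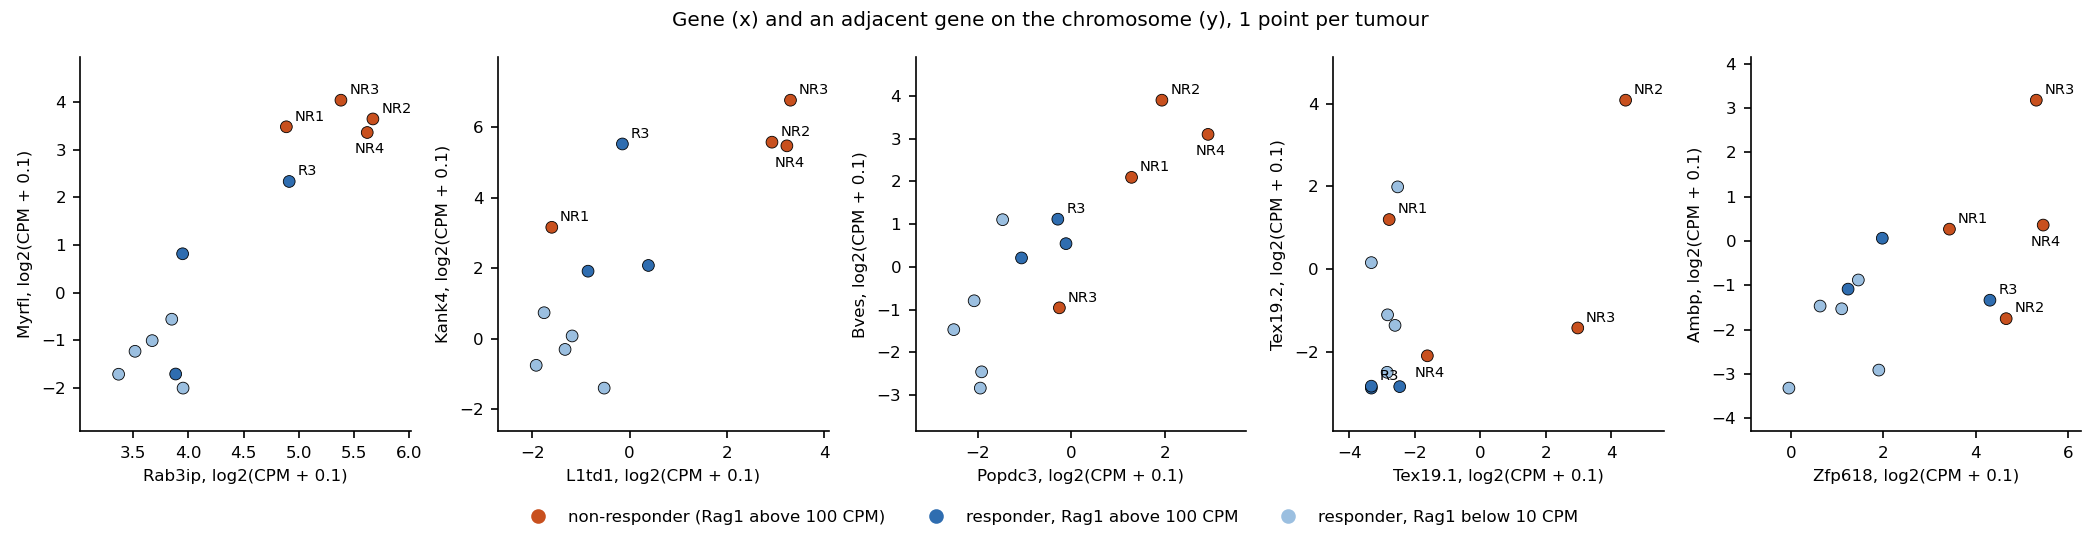
Level of 5 of the genes (horizontal axes) and of an adjacent gene (vertical axes) as log2 of CPM plus 0.1, with 1 point per tumour and the non-responders and responder 3 labelled. Rab3ip and Myrfl are high together in the 4 non-responders, with responder 3 nearest to them and just above non-responder 1 for Rab3ip, whereas Tex19.1 and Tex19.2 are high together in non-responder 2 alone.

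Other neighbours had smaller and tighter differences. Zbtb24, a zinc finger gene 20068 bases from Smpd2, was at 26.7 to 37.4 CPM in non-responders and at 17.6 to 25.1 CPM in responders, without overlap (log2 fold 0.57, SE 0.16, adjusted p = 0.117 in edgeR and 0.00505 in DESeq2). Ubqln1, a ubiquilin gene next to Gkap1, was at 148 to 214 CPM in non-responders and at 71.7 to 199.8 CPM in responders (log2 fold 0.62, SE 0.27, adjusted p = 0.189 in edgeR). Whamm, the neighbour of Fsd2 on 1 side, differed by 0.27 (SE 0.18, adjusted p = 0.364 in edgeR).

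Relatives of the 10 genes had fold changes of both signs. Of 13 paralogues tested, 6 had a fold change above 0 and 7 below it, the median on the log2 scale was -0.02, and edgeR called 0 while 4 were higher and 1 lower at an unadjusted p under 0.05, where 7.73% and 16.1% of all genes were. The higher ones were Bves, Fsd1, Snx17 (0.47, SE 0.17) and Smpd4 (0.41, SE 0.18). Fsd1, the relative of Fsd2, was at 6.44 CPM in non-responder 3 and at 0.0490 to 0.817 CPM in the other 3, against 0.0822 to 0.544 CPM in responders, and its log2 fold change of 2.29 (SE 0.81, adjusted p = 0.134 in edgeR) was 0.07 without non-responder 3. Popdc2, the third Popeye gene, had the opposite direction. It was at 0.184 to 0.413 CPM in non-responders and at 0.476 to 3.94 CPM in responders, without overlap. Its log2 fold change was -2.03 (SE 0.65, adjusted p = 0.118 in edgeR and 0.0200 in DESeq2). Rab3il1, the other RAB8 exchange factor, was at 12.8 ± 4.30 CPM in non-responders (SD, n = 4) and 16.03 ± 6.96 CPM in responders (SD, n = 8). Smpd1 and Smpd3, which encode the acid and another neutral sphingomyelinase, had log2 fold changes of -0.29 (SE 0.24) and -0.83 (SE 0.38), and Thnsl1 0.63 (SE 0.46).

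Genes that work with the 10 had fold changes of both signs, and in edgeR none of these lists held a gene past an adjusted p of 0.05. DESeq2 called 2.8% of all genes higher and 10.4% lower, and its counts for the lists below stand against those shares. Among 30 RAB8, RAB11 and exocyst genes, 15 were higher and 15 lower, and 4 were higher and 5 lower at an unadjusted p under 0.05, the share lower being near the 16.1% of all genes. DESeq2 called 1 higher and 3 lower. Rab11fip1, an effector of RAB11 in recycling, was at 7.72 to 22.8 CPM in non-responders and at 25.004 to 49.0 CPM in responders, without overlap. Its log2 fold change was -1.20 (SE 0.31, adjusted p = 0.117 in edgeR and 0.00515 in DESeq2). The exocyst subunits split, with Exoc6 at -0.97 (SE 0.31) and Exoc2 and Exoc7 at 0.56 (SE 0.19) and 0.45 (SE 0.17). Among 29 genes of sphingomyelin and ceramide metabolism, 14 were higher and 15 lower, with 3 and 5 at an unadjusted p under 0.05, again near the 7.73% and 16.1% of all genes. DESeq2 called 1 higher and 3 lower. Sgms1, a sphingomyelin synthase gene, averaged 11.1 ± 3.09 CPM in non-responders (SD, n = 4) and 27.6 ± 13.5 CPM in responders (SD, n = 8). The difference was -1.31 on the log2 scale (SE 0.40, adjusted p = 0.117 in edgeR and 0.0149 in DESeq2). Acer2, a ceramidase gene, and Ugcg, the glucosylceramide synthase gene, were at -1.58 (SE 0.56) and -1.02 (SE 0.36), while Kdsr, of ceramide synthesis, was at 0.61 (SE 0.21).

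Of 29 sorting nexins, 9 were higher and 20 lower, with 2 and 4 at an unadjusted p under 0.05, near the 7.73% and 16.1% of all genes, and 1 called in each direction by DESeq2. Snx5 had no overlap between groups, at 205 to 247 CPM in non-responders and 253 to 433 CPM in responders. Its log2 fold change was -0.57 (SE 0.16, adjusted p = 0.117 in edgeR and 0.00898 in DESeq2), while Snx3 was at 0.69 (SE 0.21) and Snx14 at -0.82 (SE 0.32). The 11 tested genes of serine and threonine metabolism, 5 higher and 6 lower, included 0 at an unadjusted p under 0.05 and 0 called by DESeq2. Of 16 genes of DNA methylation and its readers 11 were higher and 5 lower, with 1 in each direction at an unadjusted p under 0.05 (Tdg at 0.74, SE 0.31, and Tet2 at -0.51, SE 0.23), and DESeq2 called 0.

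Germline and pluripotency genes were described because Tex19.1 and L1td1 are known from such cells. Of 34 listed, 13 had enough counts, and 9 of these were higher and 4 lower, with a median log2 fold change of 1.16; 3 were higher and 1 lower at an unadjusted p under 0.05, where 7.73% and 16.1% of all genes were, and DESeq2 called 1 in each direction. Without responder 2 or non-responder 3 that median was 0.53 and 0.31, and within the Rag1-high tumours it was 0.43. Lin28b, which encodes a blocker of let-7 maturation, was at 0.413, 11.4, 0.230 and 33.3 CPM in non-responders, against 0 to 1.86 CPM in responders (log2 fold 5.0, SE 1.26, adjusted p = 0.117 in edgeR and 0.00196 in DESeq2). Its 2 high tumours were non-responders 2 and 4, where Tex19.1 had 21.6 and 0.227 CPM, and without non-responder 4 the value was 3.5. Lin28b lies near Popdc3, on chromosome 10 from 45376620 to 45486395 (GRCm38), just past Bves, which ends at 45372479. Non-responder 3 was the lowest non-responder for Lin28b, as for Bves and Popdc3. In non-responder 1, however, Lin28b lay within the responder range, while Bves (4.18 CPM) and Popdc3 (2.34 CPM) exceeded every responder. Whether these neighbours vary together was not tested, and Lin28b is not taken as independent of Popdc3. Brdt, a testis bromodomain gene, was at 12.3 to 14.8 CPM in non-responders and 1.43 to 13.9 CPM in responders (1.34, SE 0.60), and Dazl was at 1.16 (SE 0.51). Tdgf1, which encodes the NODAL co-receptor CRIPTO, went the other way, at 0.227 to 1.89 CPM in non-responders and 0.123 to 32.5 CPM in responders (log2 fold change -3.16, SE 1.35). Its sign turned within the Rag1-high tumours (1.37).

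Cyclic GMP signalling genes, which include the kinases that bind Gkap1, mostly had the opposite sign to Gkap1. Of 11 tested, 10 had a fold change below 0 and 1 above it, with a median log2 fold change of -2.21. At an unadjusted p under 0.05 were 8 lower genes and the 1 higher gene, Pde5a, where 16.1% of all genes were lower and 7.73% higher. DESeq2 called 8, all lower, where it called 10.4% of all genes lower. Gucy1a1 and Gucy1b1, the subunits of soluble guanylate cyclase, were at -2.76 (SE 0.72) and -2.46 (SE 0.68), and Gucy1a2 and Mrvi1 at -2.28 (SE 0.68) and -1.93 (SE 0.54), each with an adjusted p of 0.117 in edgeR, and the kinase gene Prkg1 was at -2.35 (SE 0.75). Gucy1a1 was at 1.74 to 3.13 CPM in non-responders, 1.73 to 7.58 CPM in Rag1-high responders and 12.6 to 39.8 CPM in Rag1-low responders. The median of the list was -0.94 within the Rag1-high tumours. These genes are also used by smooth muscle and vessels. The endothelial list was lower as well (median -1.61, and -0.54 within the Rag1-high tumours), a part that was not tested.

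**Figure D4:**
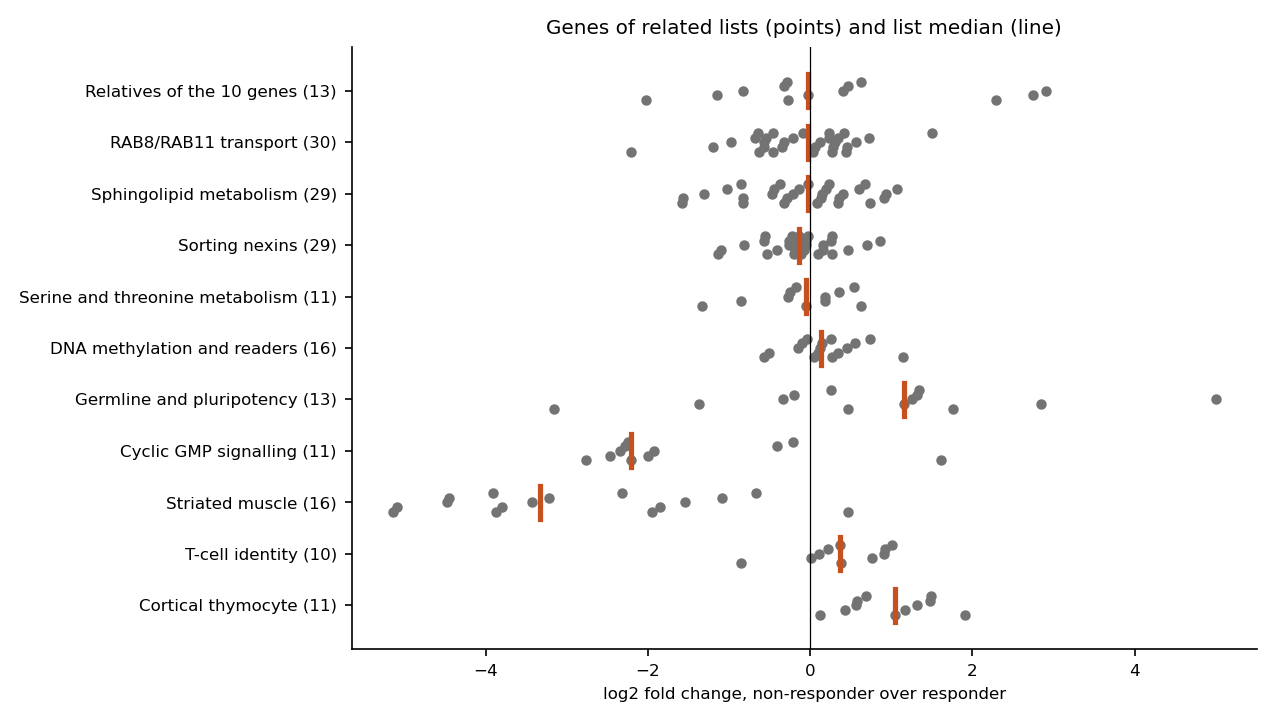
Log2 fold change, non-responder over responder (horizontal axis), of each tested gene in 11 related lists (points) and the list median (line), with the number of genes in brackets. The lists around Rab3ip, Smpd2, Snx31 and Thnsl2 centre near 0, whereas the cyclic GMP (-2.21) and striated muscle (-3.33) lists lie below it.

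Outside the 10 genes, the transcripts whose pattern over the 12 tumours was most like theirs were Edc4, Unc45a and Atxn1l. Likeness was the mean absolute difference between a gene's standardised log2 CPM and the mean standardised log2 CPM of the 9 genes, and it was 0.223, 0.228 and 0.233 for these, in units of SD. Among the 9 themselves it ran from 0.235 for Rab3ip to 0.375 for L1td1. Edc4 encodes a scaffold of mRNA decapping and averaged 108 ± 12.4 CPM in non-responders (SD, n = 4) and 69.7 ± 12.8 CPM in responders (SD, n = 8). Unc45a, which encodes a myosin chaperone, was at 51.3 to 65.6 CPM in non-responders and 29.9 to 46.1 CPM in responders, without overlap. Atxn1l, a paralogue of the ataxin-1 gene, averaged 78.6 ± 8.95 CPM in non-responders and 58.2 ± 5.92 CPM in responders. Because the 10 genes were chosen for a difference between the groups, a likeness to them also selects for that difference.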

How the data were processed

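The authors deposited raw counts per Ensembl gene for 12 tumours in 1 table. Per the labels' protocols, libraries came from a TruSeq mRNA kit and gave paired-end reads of 75 bases; HTSeq and DESeq are named in the submitters' processing notes without versions. The genome build is not settled, since those notes name NCBIM37 and the labels name mm10; no aligner or strand setting is given in the sources used here. Symbols and positions come from GENCODE M21 (GRCm38), which matched 32919 of 37991 identifiers, and were not used in counting.

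Genes were filtered with filterByExpr, scaled by TMM and tested with edgeR 4.0.16 (R 4.3.3), quasi-likelihood, robust, two-sided, with Benjamini-Hochberg adjustment over all 18612 genes at 0.05. Log2 fold changes are non-responder over responder. Their SE is the absolute log2 fold change divided by the square root of the quasi-likelihood F statistic. For the 10 genes it is given as a description and is not to be read as a test. DESeq2 1.42.0 and limma-voom (limma 3.58.1) were alternatives. Log2 CPM used a prior count of 2. The procedure was also run on simulated data. These had no split of tumours by Rag1 level, so they do not show how the procedure behaves in these tumours. The series' design text calls the samples independent, and no 2 libraries agreed within sampling noise (chi-square per degree of freedom at least 58.8 over 66 pairs). The 10 genes and all lists were chosen with earlier results of these data known. Named were the 10 genes, Rag1, their paralogues and neighbours, up to 4 genes per list with the lowest p, and the 3 genes most alike; the text names part of these, and Pde5a and Prkg1 were added after their values were seen.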

Additional observations from a re-analysis of the deposited data

Results flagged for a closer look

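The values of the 10 genes were checked in each group for a tumour far from the others (Dixon's criterion at 95%), which chance alone would meet in about 1 of 20 groups. Of the 20 groups checked, 2 held such a tumour, and it was responder 3 each time. For Zfp618, responder 3 was at 19.7 CPM and the next responder at 3.84 CPM, a gap of 0.842 of the range. For Rab3ip it was at 30.03 CPM and the next responder at 15.4 CPM, a gap of 0.740 of the range. Without responder 3 the log2 fold change was 3.63 for Zfp618 and 1.67 for Rab3ip.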

How the results depend on the processing

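The 9 fitted genes kept a higher level in non-responders under all 22 alternatives in which they could be fitted. They were chosen for this direction in these tumours, so the kept sign adds no support. Tex19.1 was not fitted, and Popdc3 could not be under a filter of 1 CPM in 4 libraries. Of 197 values, 193 moved by less than the spread between tumours, a wide margin for some genes. The 4 that moved further came from scaling by the T-cell list: Fsd2 1.45, Rab3ip 0.72, Gkap1 0.73 and Smpd2 0.06. The median of the 9 was 2.53 over all tumours, 1.92 with Rag1 as a covariate, 1.78 within the Rag1-high tumours and 1.85 under the T-cell scaling. Genes past an adjusted p of 0.05 numbered 0 in edgeR, 2462 in DESeq2 and 1647 in limma-voom, and 0 to 5 with 1 tumour left out (5 without responder 3, 3 without non-responder 1, 1 without non-responder 3). Genes without overlap numbered 177 higher and 219 lower in non-responders, and 529 and 523 within the Rag1-high tumours. With 1 tumour left out they ran from 189 to 413 and from 212 to 605. Fewer tumours have less room to overlap, but the filter and scaling were also redone for each set. Without responder 4 the number lower was 212, under the 219 of all tumours. Tdgf1 turned to 0.94 with Rag1 as a covariate and to 1.37 within the Rag1-high tumours; the cause was not tested. With 1 tumour left out, Zfp618 ran from 2.46 to 3.63 and Popdc3 from 2.73 to 3.75. No paired analysis was possible because the labels give no replicate numbers that tie tumours together. The median of the germline list, 1.16 over all tumours, was 0.53 without responder 2 and 0.31 without non-responder 3. Counts of 5 or fewer in single tumours limit Tex19.1, L1td1 and Popdc3.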
